A study of Mus musculus with 8 samples.

Results

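Immediate-early and rapid feedback genes form a group of 38 genes, of the 21154 genes that a probe of the array could be assigned to, whose mRNA rises quickly when a cell is stimulated or handled. The members were chosen by gene symbol, with the log2 intensities of *Fos* and related genes in these mice already known, and a gene was represented by its brightest probe. Of the 38 genes, 35 were compared, beside 16959 genes compared in all. The islets came from male mice on a C57BL/6 background fed a standard diet, 4 labelled CB1 WT (β-CB1R+/+, here control) and 3 labelled CB1 KO (β-CB1R-/-, here knockout). By the study's methods, animals of both genotypes were *Cnr1* flox/flox and were given tamoxifen, and only the knockouts carried the MIP-Cre/ERT transgene, in which an insulin promoter drives the recombinase in beta cells. Transgene and receptor loss therefore cannot be told apart here. The sample labels describe a global CB1 knockout instead, whereas the title and design of the series name the beta-cell-specific knockout. Islets were freed with collagenase and picked by hand. The ages of the array mice were not given in the sources used here. Each mouse gave 1 value, and the repeat arrays of knockout mouse 2 were averaged.

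Immediate-early genes are transcribed within minutes of a signal without new protein being made, through transcription factors already present in the cell, such as CREB and the serum response factor with its partners. Many of their products are transcription factors that switch on later genes, and others, such as the MAP kinase phosphatases and the mRNA decay factor tristetraprolin, shut the same response down. In islets they are known to respond to glucose, cAMP and calcium, as well as to the handling of tissue.

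The stretch just before the transcription start is shown for 5 genes, *Fos* because it sets the order of the mice used below, and 4 of the 5 others that had 18 or more of 21 pairs of mice in its order and whose window holds a full cAMP response element or a CArG box. The fifth, *Dusp5*, had the fewest pairs with the narrowest range and is not shown. Sequences are from RefSeq, build GRCm38.p6, read 5′ to 3′ in the direction of transcription, 250 bases each. Capitals mark the core cAMP response element TGACGT in *Fos*, the full element TGACGTCA in *Btg2* and *Dusp1*, and the CArG box, to which the serum response factor binds, in *Egr2* and *Zfp36*.
Fos (chr12:85473640-85473889, plus strand): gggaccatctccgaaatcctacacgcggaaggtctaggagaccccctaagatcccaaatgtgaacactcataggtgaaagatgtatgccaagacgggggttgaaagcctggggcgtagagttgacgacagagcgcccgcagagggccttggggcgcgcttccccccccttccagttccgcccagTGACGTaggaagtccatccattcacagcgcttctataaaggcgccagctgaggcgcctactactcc
Btg2 (chr1:134079156-134079405, minus strand): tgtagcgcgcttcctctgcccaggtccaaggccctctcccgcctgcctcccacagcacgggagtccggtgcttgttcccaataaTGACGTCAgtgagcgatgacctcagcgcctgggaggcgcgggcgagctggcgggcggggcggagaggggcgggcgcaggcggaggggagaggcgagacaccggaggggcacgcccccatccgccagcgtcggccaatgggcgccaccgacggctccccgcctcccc
Dusp1 (chr17:26508473-26508722, minus strand): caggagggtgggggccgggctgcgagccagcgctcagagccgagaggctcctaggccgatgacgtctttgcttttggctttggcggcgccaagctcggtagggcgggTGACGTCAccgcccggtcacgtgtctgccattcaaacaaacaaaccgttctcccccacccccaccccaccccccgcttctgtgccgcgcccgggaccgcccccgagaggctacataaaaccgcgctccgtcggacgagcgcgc
Egr2 (chr10:67537316-67537565, plus strand): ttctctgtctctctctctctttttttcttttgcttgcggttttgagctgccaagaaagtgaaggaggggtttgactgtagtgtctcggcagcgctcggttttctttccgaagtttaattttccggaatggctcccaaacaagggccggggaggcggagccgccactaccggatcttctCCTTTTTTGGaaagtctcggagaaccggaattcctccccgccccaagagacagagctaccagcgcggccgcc
Zfp36 (chr7:28379229-28379478, minus strand): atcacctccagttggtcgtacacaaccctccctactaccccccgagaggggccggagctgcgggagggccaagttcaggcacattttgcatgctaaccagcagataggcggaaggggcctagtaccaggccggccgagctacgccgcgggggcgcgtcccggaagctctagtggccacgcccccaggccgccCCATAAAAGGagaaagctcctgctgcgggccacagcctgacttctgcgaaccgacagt
In *Fos* the core element lay 66 to 61 bases before the start. The CArG box lay 72 to 63 bases before the start of *Egr2* and 58 to 49 bases before that of *Zfp36*. *Egr2* has 5 annotated starts, and the window shown belongs to 1 of them. Both strands were searched. A window was found for 32 of the 38 members, and *Arc*, *Egr1*, *Egr3*, *Fosl1*, *Ier2* and *Myc* had none. TGACGTCA was present for 3 members, *Btg2*, *Dusp1* and *Maff*, and for 1.77% of all 27025 genes with a window. The shorter TGACGT, which every full element contains, was present for 13 members and 7.29% of all genes. A CArG box was present for 3 members, *Dusp5*, *Egr2* and *Zfp36*, and for 1.62% of all genes. The AP-1 motif TGANTCA was present for 1 member, *Zfp36l1*, and for 7.82% of all genes. A match describes the letters only.

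The arrays were of 1 colour, and intensities are given on the log2 scale relative to the 75th percentile of the same array, so that 0 is that percentile and a step of 1 is a doubling. All 8 arrays were on 1 slide, with control and knockout arrays on opposite sides, so that position and genotype cannot be told apart. From 33304 to 39988 probes per array were well above background, and the number of arrays limits the precision. Beta cell markers were measured above background for 10 of 10 genes. *Cnr1*, which encodes CB1R, was -1.11, -0.77, -0.53 and -0.02 in control mice 1 to 4 and -2.30, -3.13 and -2.28 in knockout mice 1 to 3. The knockouts were lower by 1.97 on the log2 scale, with no overlap between the groups (exact permutation p = 0.0286, the smallest that 4 against 3 mice allow, and limma adjusted p = 0.193). The labels name the mice of a group only as replicates, so that p-values measure the spread between these samples. In bulk islets, fewer cells of a type and less RNA per cell cannot be told apart.

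*Fos*, which encodes the partner of Jun proteins in the AP-1 transcription factor, varied 240-fold between the mice. Its log2 intensity was 6.31 in control mouse 3, 5.84 in knockout mouse 2 and 5.34 in control mouse 4. It was then 0.75 in knockout mouse 1, -0.71 in knockout mouse 3, -0.82 in control mouse 1 and -1.59 in control mouse 2. The widest step, 4.59, lay between control mouse 4 and knockout mouse 1, and each genotype had mice on both sides of it. Knockout mouse 3 and control mouse 1 differed by 0.10 only, so that their order is not settled. The repeat arrays of knockout mouse 2 differed by 0.03 for *Fos*. Values of the other genes are given below in this order of falling *Fos*: control 3, knockout 2, control 4, knockout 1, knockout 3, control 1 and control 2. For each gene the 21 pairs of mice were counted in which the mouse with more *Fos* also had more of that gene, and 18 or more pairs were called in the order of *Fos*. Because the group was chosen with the spread of *Fos* known, these counts are a description and were not tested.

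Of the 34 compared members other than *Fos*, 19 were in the order of *Fos*, where 0.735% of all compared probes were. With dim mice set at the floor 17 members were, without *Zfp36* and *Dusp5*. All 19 spanned at least 1 on the log2 scale, and 0.554% of all probes met both limits. In 24 members the 3 mice with most *Fos* were all above the other 4, as for 1.15% of all probes. None of the 34 ran in the reverse order, with 3 or fewer pairs, which 1.92% of all probes did. Within genotype alone, 9 of the 34 members followed *Fos* in all 9 pairs (0.508% of all probes) and 20 in at least 8 (2.78% of all probes). With dim mice set at the floor, the range over the mice was at least 1 for 30 of the 34 members (54.4% of all probes) and at least 3 for 12 (2.23% of all probes). From the values as measured, these counts were 30 (56.3% of all probes) and 13 (3.81% of all probes), the difference being *Egr2*, whose lowest values were dim.

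**Figure D1:**
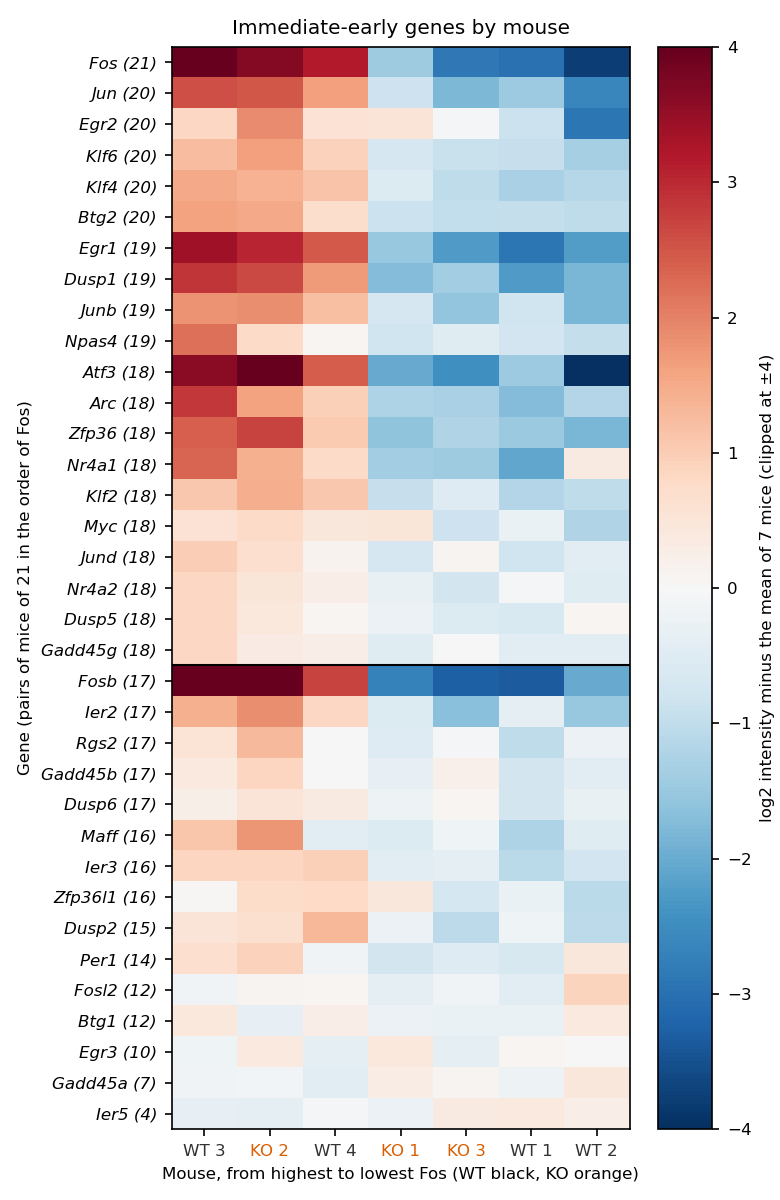
Each row is 1 of the 35 compared genes and each column 1 mouse, from the highest *Fos* to the lowest, and colour is the log2 intensity minus the mean of the 7 mice, clipped at 4 in either direction. The number after a gene counts the pairs of mice, of 21, in the order of *Fos*, and the line separates the 19 genes in that order, with *Fos*, from the 15 that were not: the 3 columns on the left are red in most rows above it, and both genotypes stand on either side.

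**Figure D2:**
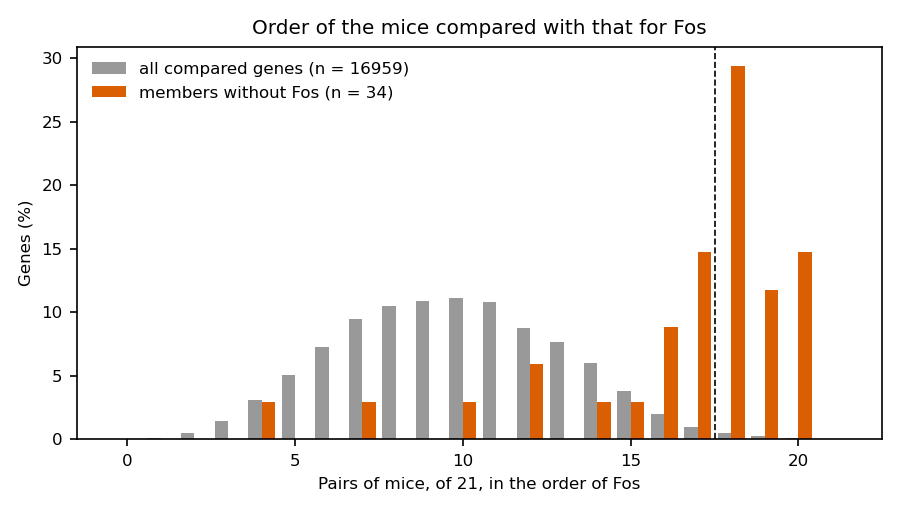
The horizontal axis is the number of pairs of mice, of 21, in the order of *Fos*, and the vertical axis the percentage of genes with that number, for all 16959 compared genes (grey, *Fos* included) and the 34 compared members other than *Fos* (orange). The dashed line marks 18 pairs, reached by 19 members and by 0.731% of all genes.

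Among the AP-1 genes, *Jun*, the main partner of Fos, fell from 7.55 and 7.46 through 6.60 and 4.13 to 3.16, 3.51 and 2.37. That is a range of 36.3-fold and 20 of 21 pairs. *Junb*, which encodes a Jun protein that competes with Jun for the same partners, was -0.11, -0.04, -0.72, -2.58, -3.48, -2.72 and -3.74, with 19 pairs. *Jund* was in the order of *Fos* at 18 pairs but spanned only 1.78, from 4.52 to 6.30. *Atf3*, a stress-induced repressor of the same leucine zipper class, was 3.01, 4.15, 1.84, -2.61, -3.06 and -2.04 in the mice down to control 1, and in control mouse 2 it was not well above background. Its range was at least 267-fold. *Fosb*, a close relative of *Fos*, was 5.76, 6.08, 4.29, -1.12, -1.67, -1.73 and -0.42. With a range of 224-fold and 17 pairs it was just under the limit, since control mouse 2 stood above all 3 of the other mice with little *Fos*. *Maff*, a small Maf protein, reached 16 pairs, led by knockout mouse 2 at 1.40. *Fosl2* did not follow *Fos*, and *Fosl1* was well above background on 2 of 8 arrays and was not compared.

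The EGR genes encode zinc-finger transcription factors named for early growth response. *Egr1* was 6.39, 6.02, 5.44, 1.47, 0.73, 0.09 and 0.75, a range of 78.7-fold with 19 pairs. The 3 mice with most *Fos* were thus at least 3.97 above any other. *Egr2* had 20 pairs, or 19 with dim mice at the floor, with -2.35, -1.29, -2.60, -2.68 and -3.27 in the mice down to knockout 3. The step from control mouse 4 to knockout mouse 1 was only 0.08. *Egr2* was not well above background in control mice 1 and 2, and its range is at least 6.15-fold. Its repeat arrays differed by 1.55, more than those of any other compared member. *Egr3* did not follow *Fos*, and *Egr4* was well above background on 3 arrays only.

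The NR4A genes encode orphan nuclear receptors that are switched on by calcium and cAMP. *Nr4a1* was 6.16, 5.24, 4.60, 2.45, 2.42 and 1.76 in the mice down to control 1 and 4.20 in control mouse 2. It kept 18 pairs, although control mouse 2, which had the least *Fos*, came within 0.40 of control mouse 4. *Nr4a2* ran from 1.70 to 0.14 with 18 pairs on its brighter probe and 17 on its dimmer one. *Nr4a3* was not well above background on any array.

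The 3 KLF genes and *Myc* were all in the order of *Fos*. *Klf6*, a zinc-finger factor induced by injury, was 3.89, 4.30, 3.61, 2.01, 1.80, 1.77 and 1.34. *Klf4*, known for reprogramming and growth arrest, was 2.56, 2.45, 2.20, 0.51, 0.04, -0.24 and -0.08. Both had 20 pairs and ranges of 7.81-fold and 6.99-fold. In each, the 3 mice with most *Fos* lay apart from the other 4, by 1.59 for *Klf6* and by 1.69 for *Klf4*. *Klf2*, a factor best known from endothelium, had 18 pairs and a gap of 1.59. *Myc*, a driver of growth and division, had 18 pairs but no gap, since knockout mouse 1 at 0.17 stood level with control mouse 4 at 0.15.

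The phosphatases that switch MAP kinases off differed in their number of pairs. *Dusp1*, which acts on nuclear MAP kinases, was 3.91, 3.70, 2.74, -0.67, -0.34, -1.22 and -0.76, a range of 34.9-fold with 19 pairs. *Dusp5* was dim in control mouse 1 and had 18 pairs, or 17 with that mouse at the floor, with a range of at least 2.59-fold. *Dusp6*, which acts on ERK in the cytoplasm, had 17 pairs and a range of 1.26, and *Dusp2* had 15. In all of these phosphatases the 3 mice with most *Fos* were above the other 4. The gap was 3.08 for *Dusp1*, 0.70 for *Dusp2*, 0.15 for *Dusp6* and 0.001 for *Dusp5*. *Rgs2*, a brake on G-protein signalling, had 17 pairs on its brighter probe, from 3.61 to 5.92, and 18 on its dimmer one, which was not well above background in control mouse 1, with knockout mouse 2 highest on both.

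Among genes of mRNA decay and growth arrest, *Btg2*, which recruits the deadenylase, was 4.35, 4.25, 3.45, 1.91, 1.78, 1.79 and 1.74 with 20 pairs. The 4 mice with least *Fos* all lay between 1.74 and 1.91 here. *Zfp36*, which encodes tristetraprolin, was -0.33, -0.03 and -1.67 in the 3 mice with most *Fos* and not well above background in the other 4. It was compared only because of those 3 mice, and its range was at least 15.0-fold. Of the 21 pairs of mice, 6 set dim mice against each other, and with dim mice set at the floor it had 17 pairs in the order of *Fos* rather than 18. *Gadd45g* had 18 pairs over a range of 1.31, *Gadd45b* had 17 pairs, and *Zfp36l1* had 16. Of the genes tied to neuronal activity, *Npas4*, a transcription factor induced by calcium entry, was 3.13, 1.69, 1.00, 0.14, 0.45, 0.18 and -0.03 with 19 pairs. *Arc*, whose product acts at synapses, was 2.24, 1.01, 0.36, -1.83, -1.90, -2.35 and -1.77 with 18 pairs. Both were highest in control mouse 3 by more than 1. *Per1*, a clock gene that also answers cAMP, had 14 pairs. Of the IER genes, *Ier2* had 17 pairs over a range of 3.52 and *Ier3* 16 pairs over a range of 2.00, with the 3 mice with most *Fos* above the other 4 in both.

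The 5 members with the fewest pairs were *Ier5*, *Gadd45a*, *Egr3*, *Btg1* and *Fosl2*. *Ier5*, a partner of heat shock factor, was -1.13, -1.21, -0.86, -1.06, -0.45, -0.44 and -0.54, with 4 pairs. Its dimmer probe had 14 pairs over a range of 0.53, so the probes disagree. *Gadd45a*, a growth arrest gene induced by DNA damage, was 0.12, 0.14, -0.15, 0.56, 0.38, 0.05 and 0.73, with 7 pairs. *Egr3* was -2.81, -2.24, -3.04, -2.22, -3.01, -2.55 and -2.62, with 10 pairs. These 3 genes spanned less than 1 between the mice. *Fosl2* was 0.05, 0.28, 0.26, -0.17, 0.03, -0.28 and 1.09, with 12 pairs and its highest value in the mouse with the least *Fos*. Its dimmer probe had 8 pairs and was highest in control mouse 1, at -0.39.

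*Btg1*, a relative of *Btg2*, differed between its probes. The brighter one, which represents it here, was 5.07, 4.33, 4.92, 4.41, 4.37, 4.37 and 5.04, with 12 pairs and a range of 0.75. The dimmer one was 2.74, 2.23, 2.80, -0.90, -2.67, -2.53 and -2.32, with 16 pairs and a range of 5.47. It was not well above background in control mouse 1, whose -2.53 was neither its highest nor its lowest value. The 3 mice with most *Fos* were the highest on the dimmer probe and not on the brighter one. Which transcripts the probes detect was not tested.

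**Figure D3:**
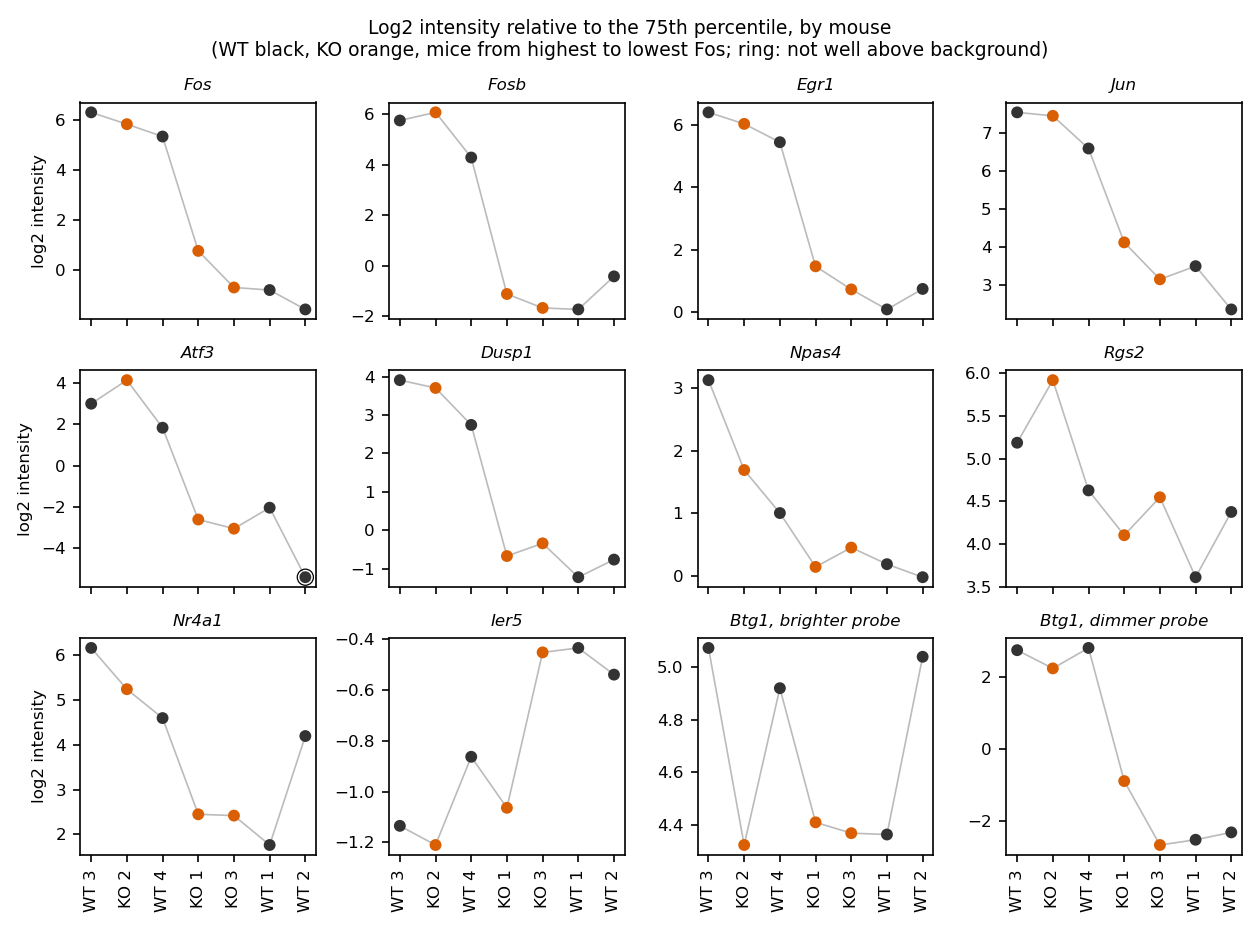
Each panel plots the log2 intensity of 1 probe (0 is the 75th percentile of the array, axes differ) in the 7 mice from the highest *Fos* to the lowest, control (WT) in black and knockout (KO) in orange, with a ring where a mouse was not well above background for the brightest probe. *Fos*, *Fosb*, *Egr1*, *Jun*, *Atf3* and *Dusp1* show a step after the third mouse, *Nr4a1* rises again in control mouse 2, *Ier5* rises towards the right, and the *Btg1* probes differ.

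Repeat arrays of knockout mouse 2 differed by a median of 0.05 over the 35 members and by under 0.2 in 32 of them. The median range between mice was 2.50 over the 34 members other than *Fos*. The count of 19 members was 13 after quantile normalisation and 12 on the deposited Z scores. It was 10 of 34 without control mouse 4, and 9 when 19 pairs were asked for. Over all genes 0.218% had 19 pairs, 0.0649% had 20, and only *Fos* itself had 21. Where a setting other than the number of pairs changed, the share of all genes was not counted.

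The difference between genotypes, the comparison for which the arrays were made, was not detectable for any member. In limma's test over all 39165 compared probes, 0 of 35 members passed an adjusted p of 0.05 in either direction (0.11% of all probes, 0.107% higher and 0.00255% lower in knockouts), 0 had an unadjusted p under 0.05 (3.59% of all probes), and the smallest adjusted p was 0.999. The genotypes overlapped in all 35 members, where 4.12% of all probes had groups that did not overlap. In the knockouts 14 members were higher and 21 lower (47.7% of all probes were higher), and the median log2 difference was -0.11, beside -0.02 over all probes. For *Fos* the mean was 2.31 ± 4.09 (SD, n = 4) in control and 1.96 ± 3.44 (SD, n = 3) in knockout islets, a difference of -0.35 with an SE of 2.33 and a 95% interval from -5.74 to 5.03. For *Egr1* the interval ran from -4.74 to 3.89. Only 7 of the 35 members had an interval inside -1 to 1, a count that was not made over all probes. The member with the smallest unadjusted limma p, 0.0657, was *Btg1*, with a difference of -0.48 and an SE of 0.23 (adjusted p = 0.999).

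With the *Fos* level of each mouse added to the fit as a number, which compares the genotypes at like *Fos*, the median SE of the 34 members other than *Fos* went from 0.64 to 0.32 and was smaller for 31 of 34. In 17 of the 34 the 95% interval then lay within -1 and 1. Neither count was made over all probes, and the members were chosen with the spread of *Fos* known. None of the 34 passed the adjusted threshold in limma (0.0434% of all probes), and 1, *Egr2*, had an unadjusted p under 0.05 (4.16% of all probes). Its fitted difference, knockout minus control, was 1.47 with an SE of 0.41 (adjusted p = 0.976), but the probe was dim in 2 of the 4 control mice, so that the size is not settled. Without the covariate the difference was 1.35, and it was 0.24 with normexp background correction and 0.58 without control mouse 2. As a difference of Z scores, a unit that cannot be set beside log2, it was 0.47. The repeat arrays of knockout mouse 2 differed by 1.55. For *Jun* the difference was 0.13 with an interval from -0.45 to 0.70, for *Egr1* -0.15 with an interval from -0.95 to 0.65, and for *Klf4* 0.02 with an interval from -0.44 to 0.48. For *Atf3*, from -1.21 to 2.19, and *Fosb*, with an SE of 0.70, differences over 1 remained within the interval.

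**Figure D4:**
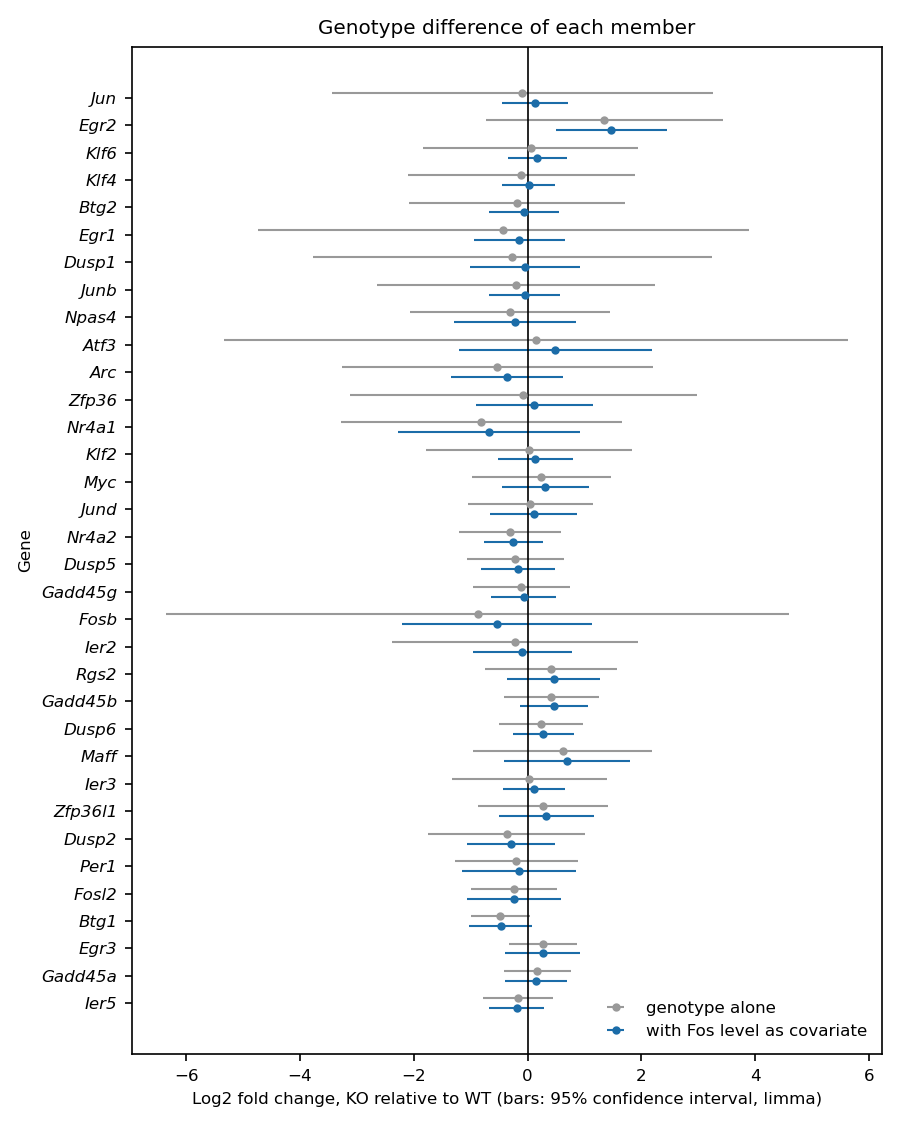
The horizontal axis is the log2 fold change of knockout relative to control islets for the 34 compared members other than *Fos* (vertical axis), from the genotype alone (grey) and with the *Fos* level as a covariate (blue), and bars are limma's 95% confidence intervals over 4 control and 3 knockout mice. The intervals cross 0 for every member without the covariate, and only that of *Egr2*, from 0.50 to 2.45, does not with it.

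Knockout mouse 2 had a *Fos* level between those of control mice 3 and 4. It was above both control mice 3 and 4 in 17 of 35 members, between them in 16 and below both in 2. Over all probes the first held for 39.5% and the last for 33.9%. The 4 mice with least *Fos* were not alike in it, since both knockouts, at 0.75 and -0.71, were above both controls, at -0.82 and -1.59. Genotype and *Fos* therefore cannot be told apart among them. Both knockouts were above both controls in 9 of 35 members, *Fos* itself among them, and below both in 0, where 7.5% and 12.7% of all probes did so, and nothing about genotype can be read from these counts. With 1 knockout and 2 control mice on one side, and 2 of each on the other, these are counts over genes of the same mice and were not tested. The mouse with the highest value of the 7 was knockout mouse 2 in 14 members and control mouse 3 in 14, so that the order within the mice with most *Fos* differed from gene to gene.

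Of a further list of rapid response and feedback genes, 12 of 44 were in the order of *Fos*, where 0.731% of all genes were. For genotype 0 of the 44 passed the adjusted threshold in limma (0.11% of all probes), 3, *Nfil3*, *Dusp4* and *Dusp14*, had an unadjusted p under 0.05 (3.59% of all probes), and 4, these 3 and *Tob2*, had groups that did not overlap (4.12% of all probes). *Socs3*, which blocks cytokine signalling, was 4.91, 3.72, 3.33, 1.22, 1.19, 1.66 and 0.74, with 19 pairs. The others were *Trib1*, *Bhlhe40*, *Pim1*, *Klf10*, *Ccn1*, *Ccn2*, *Id1*, *Id3*, *Spry1*, *Rhob* and *Cited2*. Of 40 upstream genes, which encode the serum response factor, CREB, their coactivators and the MAP kinases, 0 were in the order of *Fos* and 0 passed limma's threshold for genotype (0 at an unadjusted p under 0.05), while 2, *Camkk2* and *Nfatc3*, had groups that did not overlap.

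Of 9 heat shock chaperones, 2 were in the order of *Fos*, where 0.731% of all genes were. *Hspa1a*, the inducible HSP70, was 3.52, 1.89, 2.18, -1.61, -2.76, -2.33 and -2.46, a step at the same place as in *Fos*. *Hspb1* was the other. Of 78 markers of 10 cell types, 0 were in the order of *Fos*, and of 12 housekeeping genes 0. The median of the 9 stellate cell and fibroblast markers, taken relative to the mean of the 7 mice, was -0.67 in control mouse 3, 0.85 in knockout mouse 2 and 2.04 in control mouse 4. It was 0.46, 0.28, -0.94 and -1.74 in the other 4 mice, 16 of 21 pairs, with control mouse 3 out of line. The part of these cells in the members' values was not tested.

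**Figure D5:**
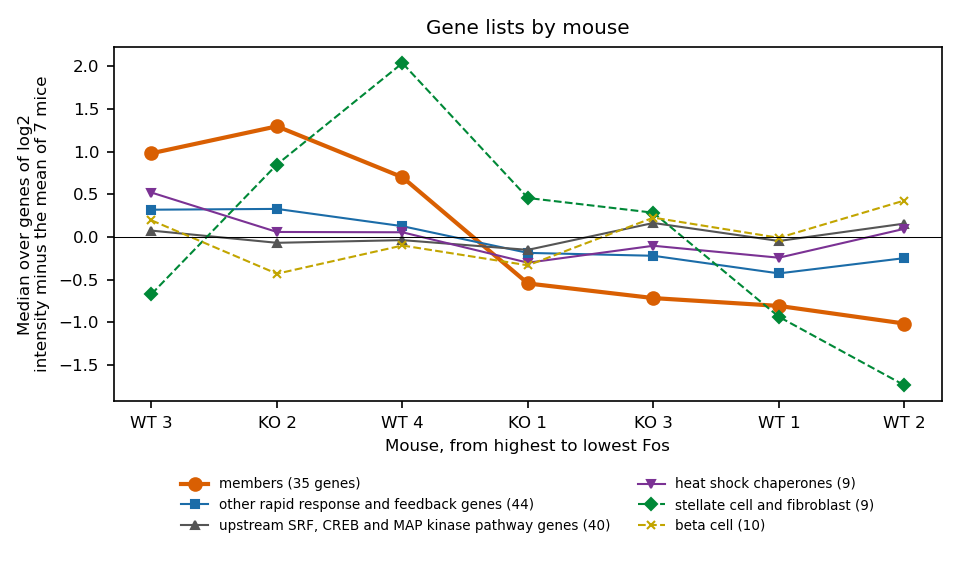
The horizontal axis is the mouse, from the highest *Fos* to the lowest, and the vertical axis the median over a list's genes of the log2 intensity minus the mean of the 7 mice, for the 35 members (orange) and 5 other lists. The members run from 0.98, 1.30 and 0.70 to between -0.55 and -1.02, the upstream genes stay between -0.15 and 0.16, and the stellate cell list peaks in control mouse 4.

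Outside the members, 71 of 7886 genes with a range of at least 1 were in the order of *Fos*, or 68 when the range was taken with dim mice at the floor. With dim mice at the floor for the range only, 9 of those had a range of at least 3. Of the 34 members, 9 both had such a range and were in the order of *Fos*, *Zfp36* among them. Of the 71 genes, the 5 with the most pairs, 20 each and ties taken by the correlation with *Fos*, were *Nr1d1*, *Tnni2*, *Glipr1*, *Wfikkn1* and *Ttc39d*. *Tnni2* was dim in 1 mouse, and *Glipr1* and *Ttc39d* in 2 mice each. *Nr1d1*, which encodes the clock repressor REV-ERBα, was 1.35, 1.55, 0.68, -0.10, -0.17, -1.54 and -1.55. *Txnip*, which encodes the inhibitor of thioredoxin, was 4.08, 4.72, 3.81, 3.50, 3.50, 2.55 and 2.83, with 19 pairs. Its difference, knockout minus control, was 0.59 with an SE of 0.47. With the *Fos* level in the fit it was 0.66 with an SE of 0.20 (limma unadjusted p = 0.0148, adjusted p = 0.997).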

How the data were processed

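Islet RNA of 4 control and 3 knockout mice was measured on 8 Agilent arrays of 1 colour. The authors deposited the scanner files of Feature Extraction 11.5.1.1, whose spot intensity is background-subtracted but not scaled between arrays, and a table with a Z score per array, which was used as an alternative. Intensities were taken as log2 relative to the 75th percentile of the 59305 non-control spots, irregular spots were left out, and spots of a probe and repeat arrays were averaged. A probe was compared when well above background in at least 3 mice. Accessions were matched to RefSeq symbols (GRCm38.p6) for 28026 of 55681 probes. Genotypes were compared with limma 3.58.1 (R 4.3.3), and two-sided p-values were adjusted over 39165 probes by the Benjamini-Hochberg method. Where a mouse was dim, ranges are bounds against the lowest signal well above background on its array. The members and lists were chosen with earlier results of these data known. Given by mouse are *Fos*, the 10 members with most pairs (ties by the wider range over mice) and the 5 with fewest, and the 5 genes outside with most pairs (range over mice at least 1, ties by the correlation with *Fos*) are named, with *Cnr1* and *Txnip*. *Fosb*, *Nr4a1*, *Arc*, *Zfp36*, *Socs3*, *Hspa1a* and the second *Btg1* probe were added after their values were seen. Alternatives were other background corrections, normalisations, filters, probes, tests, reference genes and thresholds, either repeat array alone, the replicate number as a block, and each mouse left out. The normexp alternative used median spot intensities with an offset of 50, since the files give no mean, a choice made after the files were seen. The code was tested on simulated data.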

Additional observations from a re-analysis of the deposited data

Results flagged for a closer look

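Of 40 sets of values of the 4 control mice examined for a mouse far from the others, of which chance marks about 2, 1 stood out. It was no gene: the mean signal of the negative control spots was 46.3 intensity units in control mouse 1, where the nearest control mouse had 39.5 and the farthest 38.3.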

How the results depend on the processing

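No member passed the threshold for genotype under any alternative. With the *Fos* level in the fit none did either (all probes averaged was added there after seeing the data), which was not run with the replicate block, the intensity trend or the methods' t-test. The count of 43 probes past the threshold became 23 without the filter on dim probes, 24 with only probes above background on all 8 arrays, 0 by the methods' t-test after Benjamini-Hochberg adjustment, and 0 to 42 when a mouse was left out (22, 15, 5 and 19 without control mice 1 to 4, and 42, 0 and 5 without knockout mice 1 to 3). With a replicate block, in which control mouse 4 has no partner and drops out of the difference, it was 0, and replicate numbers did not pair the mice (correlations 0.42, -0.27 and -0.06). The 19 members in the order of *Fos* became 12 on the deposited Z scores, 12 by the order of *Junb*, 9 at 19 of 21 pairs, and 10 to 21 with a mouse left out, at 13 of 15 pairs (10 without control mouse 4). With dim mice at the floor, chosen after seeing the data, they were 17, with *Zfp36* and *Dusp5* lost. Log2 fold changes under the alternatives were computed for 16 members, *Fos*, the 10 with most pairs and the 5 with fewest. Among them they turned sign with the replicate block for *Fos* (0.66), *Jun* (0.44), *Egr1* (0.33), *Dusp1* (0.26), *Klf4* (0.25), *Junb* (0.16) and *Btg2* (0.0208). They did so with the *Fos* covariate for *Jun* (0.13) and *Klf4* (0.0179) (over all 34 members, for *Zfp36* too, 0.12), with normexp for *Atf3* (-0.0507) and *Fosl2* (0.15), and with all probes averaged for *Ier5* (0.0157). Leaving out a mouse gave -2.29 to 0.985 for *Fos*, -1.36 to 0.79 for *Jun*, -2.07 to 0.65 for *Egr1*, -2.18 to 1.42 for *Atf3*, -1.67 to 0.645 for *Dusp1*, -1.20 to 0.51 for *Junb*, -0.99 to 0.32 for *Btg2*, -0.835 to 0.375 for *Klf4*, -0.75 to 0.51 for *Klf6*, -0.78 to 0.37 for *Npas4* and -0.42 to 0.0361 for *Fosl2*. The cause was not tested. A block for slide or scan was not run, since there was 1 of each. Dim probes limit the ranges of *Egr2*, *Zfp36*, *Atf3* and *Dusp5* to bounds.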
